A study of Sus scrofa with 9 samples.

Results

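The mitochondrial genome of pig oocytes was examined through the 37 genes that lie on it, of 23507 genes in the deposited count table. The set was chosen with earlier results of these data known. Its members are every row of the table on the mitochondrial chromosome (MT), taken by position whatever their values. They comprise 13 protein-coding genes, 2 rRNA genes and 22 tRNA genes, by the gene types of the table. The RNA came from pig (Sus scrofa) eggs that had reached metaphase II (MII), where maturation pauses until fertilisation, and was primed from its poly(A) tails. All animals were labelled wild type, and all oocytes were collected inside compact layers of cumulus cells and matured in culture. The heat stress + L-Asp group (3 libraries) was heated in the same way in the presence of L-Asp, a common code for L-aspartic acid. The labels list 0.5, 1.0 and 1.5 mmol/L L-Asp and do not say which was sequenced. The heat stress group (3 libraries) was cultured at 41.5 °C for 24 h from the germinal vesicle stage and then at 38.5 °C until MII. The control group (3 libraries) stayed at 38.5 °C throughout. The labels give 25 oocytes per group without the number per library. Separate animals or cultures are not named for the libraries, so p-values measure the spread between libraries, which may be technical.

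Mitochondrial DNA is a small circle, inherited through the egg, that encodes core subunits of the respiratory chain and the rRNAs and tRNAs needed to translate them. Both strands are copied into long precursors. The tRNAs sit between most of the larger genes and are cut out, which frees the neighbouring mRNAs and rRNAs, and most mRNAs then receive a short poly(A) tail. The proteins belong to complex I (the ND genes), complex III (CYTB), complex IV (the COX genes) and complex V, the ATP synthase (the ATP genes). Aspartate is an amino acid that takes part in the exchange of reducing equivalents between cytosol and mitochondria.

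Of the 37 genes, 28 lie on the plus strand and 9 on the minus strand, namely ND6 and 8 tRNA genes. All 37 passed the filter on low counts, with between 51 and 3531503 counts per gene and library. Library totals were 41693395 to 49008681 counts with L-Asp, 46198885 to 53327419 in heat stress and 54965064 to 58361475 in control. The median index of dispersion over genes (squared difference between 2 libraries over that of independent counts, which give about 1) was 79.4 to 84.9 within the L-Asp group, 109 to 119 within heat stress and 5.19 to 5.22 within control. Over the 13 protein-coding mitochondrial genes it was at least 4280 within the L-Asp group, at least 12588 within heat stress and 13.9 to 47.9 within control. The control libraries thus differed by more than independent counts would, but far less than libraries of the other groups. Control for that reason is given as the average of its libraries, 1 sample assumed to vary like the heated ones and without an SD, unless 9 libraries are named. Oocyte markers (17 of 18 in the table, all tested) summed to 24063 to 28032 CPM with L-Asp, 19489 to 23912 CPM in heat stress and 36542 CPM in control, where CPM is the count scaled to a common library total. BTG4 gave 5426 to 9649 CPM of these with L-Asp, 5484 to 8803 CPM in heat stress and 15798 CPM in control. BMP15 was lower when heated too, at 1394 to 2435 CPM in heat stress and 5174 CPM in control. OOEP, ZP3 and ZP4 were higher in all heated libraries than in control. For OOEP the values were 877 to 1109 CPM in heat stress and 519 CPM in control. These oocyte markers were picked after their values were seen, and that list had no common direction. Markers of cumulus and granulosa cells (22 of 27 in the table, 1 of them, PTX3, at 0 in every library) summed to 1225 to 1266 CPM with L-Asp, 1244 to 1631 CPM in heat stress and 1229 CPM in control. RGS2 alone gave 805 to 934 CPM of these with L-Asp, 853 to 1321 CPM in heat stress and 942 CPM in control. Without RGS2 and VCAN the other 20 genes summed to 161 to 226 CPM with L-Asp, 117 to 211 CPM in heat stress and 153 CPM in control. Some of them were near 0 in control and higher when heated. CYP11A1, the enzyme that starts steroid synthesis, had 0.687 to 7.80 CPM with L-Asp, 5.98 to 15.1 CPM in heat stress and 0.0390 CPM in control (heat stress against control, edgeR adjusted p = 0.570). GJA1, a gap junction protein, had 1.60 to 7.03 CPM with L-Asp, 6.97 to 13.4 CPM in heat stress and 0.800 CPM in control (edgeR adjusted p = 0.779). FST went the other way, with 31.0 to 36.8 CPM with L-Asp, 24.8 to 43.4 CPM in heat stress and 49.3 CPM in control. CYP19A1 had 0.525 to 0.608 CPM with L-Asp, 0.486 to 0.720 CPM in heat stress and 0.644 CPM in control. All of these genes were picked after their values were seen, and the list had no common direction. Theca and stroma, blood and endothelial markers each summed to 42.5 CPM or less in every library.

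The mitochondrial genes took 5.30%, 9.47% and 9.29% of all counts in L-Asp replicates 1, 2 and 3, and 3.09%, 5.18% and 14.5% in heat stress replicates 1, 2 and 3. They took 10.0% to 10.1% in the control libraries. Heat stress replicate 3 thus stood above control and above the other 5 heated libraries, all of which stood below control. The means were 8.02% ± 2.36 with L-Asp and 7.60% ± 6.09 in heat stress (SD, n = 3 each), a difference of 0.422 percentage points (exact permutation test, two-sided, p = 0.9, where 0.1 is the smallest p that 3 against 3 libraries allow). Without heat stress replicate 3 the difference was 3.89 percentage points, and without heat stress replicate 1 it was -1.83. The difference from control was -2.07 percentage points with L-Asp and -2.49 in heat stress, or -5.96 in heat stress without replicate 3. Counting error was small beside these differences: the 95% Wilson half-widths were at most 0.00946 percentage points. They treat reads as independent molecules and so leave out PCR copying. The control libraries alone ranged between 10.04% and 10.13%, wider than these intervals. In bulk samples fewer contributing cells and less RNA per cell cannot be told apart, and neither can a shorter or missing poly(A) tail and less RNA. The cumulus and granulosa sum was 1631 CPM in heat stress replicate 1, with the lowest mitochondrial share, and 1244 CPM in replicate 3, with the highest. Without RGS2 and VCAN the order was the other way, with 125 CPM in replicate 1 and 211 CPM in replicate 3. GATA4 alone gave 42.9 CPM of these in replicate 1 and 120 CPM in replicate 3. CYP11A1 (15.1 CPM) and GJA1 (13.4 CPM) were highest in replicate 3 as well. FST went the other way, with 43.4 CPM in replicate 1 and 27.8 CPM in replicate 3. All of these genes were picked after their values were seen, and the list had no common direction. The part of such cells in the result was not tested.

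**Figure D1:**
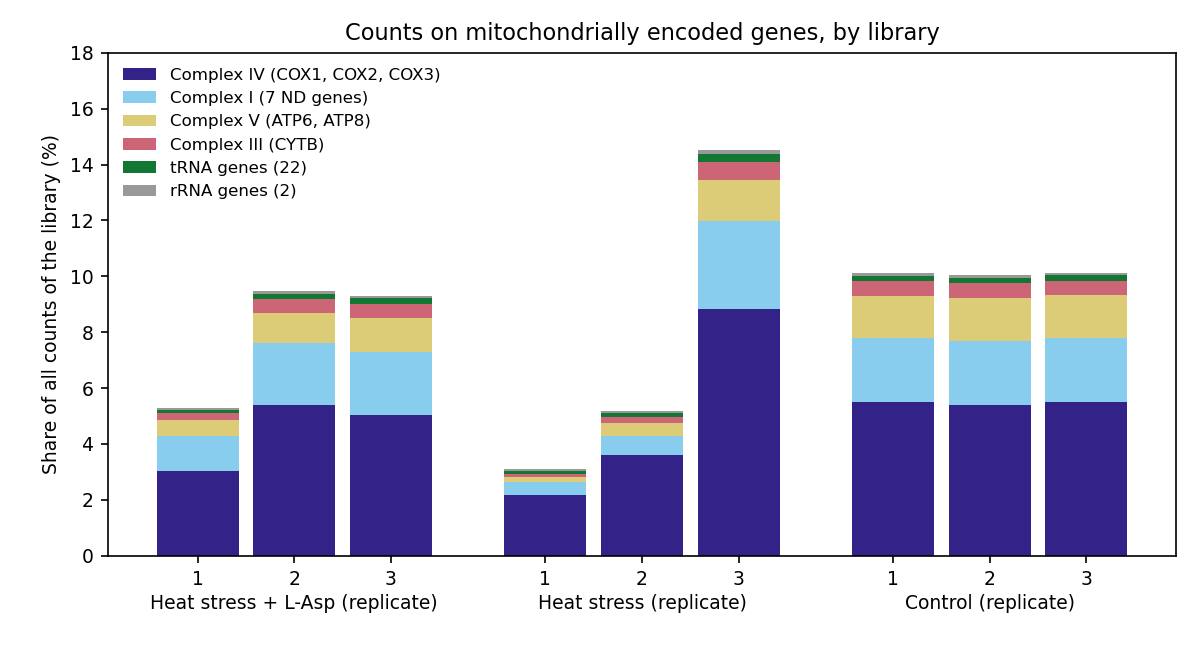
Share of all counts in each of the 9 libraries (stacked bars, in percent) that fell on mitochondrially encoded genes, split by the complex or RNA class of the gene. The 3 control bars reach 10.0% to 10.1%, whereas the heat stress bars reach 3.09%, 5.18% and 14.5%, and in every bar complex IV is the largest section.

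Complex I is the entry point of electrons from NADH, and 7 of its subunits are encoded here. ND1 measured 2621, 5285 and 4546 CPM in the L-Asp libraries, 957, 1075 and 8794 CPM in the heat stress libraries and 6598 CPM in control. ND2, next to it in the genome, measured 2810.5, 5586 and 4899 CPM with L-Asp, 800.3, 1118 and 9351 CPM in heat stress and 6701 CPM in control. In both genes all L-Asp libraries were below control, and heat stress replicates 1 and 2 lay at 0.119 to 0.167 of control while replicate 3 lay above it. ND4, a proton-pumping subunit, measured 3031, 5188 and 6505 CPM with L-Asp, 1152, 1707 and 6283 CPM in heat stress and 6099 CPM in control. ND4L, which overlaps ND4 by 7 bases and is carried on the same mRNA, measured 708, 1304 and 1722 CPM with L-Asp, 260.2, 448 and 1669 CPM in heat stress and 1177 CPM in control. For ND4 and ND4L the highest library was L-Asp replicate 3, not heat stress replicate 3. The same held for ND3, which measured 311, 515 and 588 CPM with L-Asp, 155, 182 and 545 CPM in heat stress and 410.2 CPM in control. ND5, also a proton-pumping subunit, measured 1813, 2996 and 3042 CPM with L-Asp, 978, 1362 and 4379 CPM in heat stress and 2846 CPM in control. ND6, the lone protein gene of the minus strand, measured 820.4, 1089.6 and 1128 CPM with L-Asp, 412, 484 and 1649.5 CPM in heat stress and 1573 CPM in control. For ND1, ND2, ND5 and ND6 all L-Asp libraries lay inside the range of the heat stress libraries, and the groups overlapped in all 7 genes.

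CYTB, the cytochrome b subunit of complex III and the only subunit of it encoded here, measured 2322, 5009 and 4883 CPM with L-Asp, 1142, 1939 and 6589 CPM in heat stress and 5671 CPM in control. All 3 L-Asp libraries were below control and inside the heat stress range. Complex IV is cytochrome c oxidase, which passes electrons to oxygen. COX1, its catalytic subunit, measured 22098, 37499.7 and 35243 CPM with L-Asp, 17254, 23016 and 68698 CPM in heat stress and 47035 CPM in control. COX1 ranked between 1 and 3 by counts among all genes in every library. COX2, which receives electrons from cytochrome c, measured 2611, 5079.8 and 4366 CPM with L-Asp, 1794, 3178 and 7974 CPM in heat stress and 4519 CPM in control. COX3 measured 5148, 10696 and 9959.8 CPM with L-Asp, 2762, 6157 and 15038 CPM in heat stress and 9334 CPM in control. For COX3, L-Asp replicates 2 and 3 lay above control, and for COX2 replicate 2 alone did.

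Complex V makes ATP from the proton gradient. ATP6, its proton channel subunit, measured 5495, 10430.0 and 11909 CPM with L-Asp, 1876, 4028 and 14516 CPM in heat stress and 16647 CPM in control. It was the only protein-coding gene here that was below control in all 6 heated libraries. ATP8, which overlaps ATP6 by 43 bases, measured 136, 278 and 221 CPM with L-Asp, 54.6, 60.8 and 555 CPM in heat stress and 433 CPM in control. Heat stress replicates 1 and 2 thus lay at 0.126 and 0.140 of control for ATP8, and at 0.113 and 0.242 for ATP6.

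Set against control, the level of the 13 protein-coding genes differed between libraries of a group. The median ratio to control was 0.497, 0.851 and 0.861 in L-Asp replicates 1, 2 and 3, and 0.221, 0.342 and 1.33 in heat stress replicates 1, 2 and 3. All 13 genes were below control in L-Asp replicate 1 and in heat stress replicates 1 and 2. Of the 13, 8 were below control in each of L-Asp replicates 2 and 3, and 1 (ATP6) in heat stress replicate 3. COX2 had the highest ratio in all 3 heat stress libraries (0.397, 0.703 and 1.76), whereas ND3 had the highest in L-Asp replicates 1 and 2 (0.758 and 1.25) and ND4L in replicate 3 (1.46). The lowest ratio fell on ATP6 or ATP8 in every heated library.

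**Figure D2:**
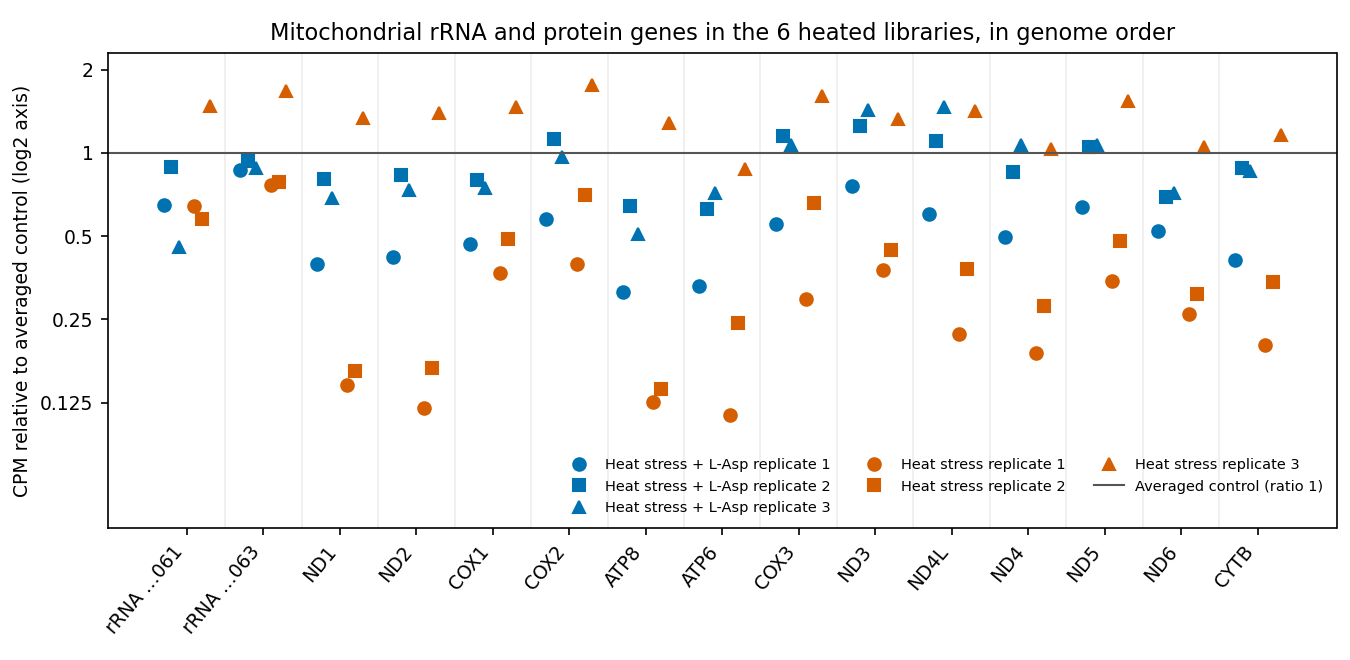
CPM of each rRNA and protein-coding gene divided by that of the averaged control (log2 axis), in genome order, for the 6 heated libraries (colour: group, L-Asp left of heat stress, symbol: replicate). Heat stress replicate 3 lies above the line of equality for every gene but ATP6, while heat stress replicates 1 and 2 lie below it throughout, lowest at ND1, ND2, ATP8 and ATP6.

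The spread within heat stress was wide for these genes beside the rest of the transcriptome. The highest heat stress library exceeded the lowest by 3.52-fold (ND3) to 11.7-fold (ND2) over the 13 protein-coding genes, with a median of 5.45-fold. In the L-Asp group the same range ran between 1.38-fold (ND6) and 2.43-fold (ND4L), and in control between 1.00-fold (ND2) and 1.04-fold (ND6). Within heat stress the largest ranges were those of ND2, ATP8 (10.2-fold) and ND1 (9.19-fold). On a log2 scale (CPM with 0.5 added), the median SD over the protein-coding genes was 0.527 with L-Asp and 1.28 in heat stress. Over all 15012 tested genes it was 0.407 with L-Asp and 0.470 in heat stress, and over the 1837 tested nuclear genes of at least 100 CPM it was 0.223 with L-Asp and 0.283 in heat stress. The 13 genes share the same 3 libraries and the same precursors, so their spreads are not independent of each other.

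In the test across all genes, no mitochondrial gene passed in any comparison. For heat stress against control, edgeR's quasi-likelihood test called 0 of 37 (adjusted p under 0.05, Benjamini-Hochberg), as it called 0.0% of all 15012 tested genes. The fitted log2 fold change was below 0 in 13 of 13 protein-coding genes, against 49.9% of all genes, with a median of -0.82 and a range of -1.29 ± 0.96 (SE, ATP6) to -0.07 ± 0.63 (COX2). On library totals without further scaling, which moved the median of all genes by 0.19, COX2 turned to 0.094. Without heat stress replicate 3 the median was -1.82 with 13 of 13 below 0. Without replicate 1 it was -0.36 with 10 of 13 below 0, and without replicate 2 it was -0.40 with 12 of 13. The 13 genes share libraries and precursors, so these counts do not stand for independent results. For L-Asp against heat stress the test likewise called 0 of 37 and 0.0% of all genes. The fold change was above 0 in 10 of 13 protein-coding genes with a median of 0.24, where 50.6% of all genes were below 0. The smallest adjusted p among them in edgeR was 0.774, for ND3 (0.68 ± 0.43, SE), with the highest library of each group at 588 and 545 CPM. Without heat stress replicate 3 the median was 1.49 with 13 of 13 above 0, and without heat stress replicate 1 or 2 it was -0.13 or -0.033, so that its sign rested on single libraries. For L-Asp against control the count was also 0 of 37 and 0.0% of all genes, with 11 of 13 below 0, where 49.5% of all genes were, and a median of -0.48. No mitochondrial gene had an unadjusted p under 0.05 in any comparison, where 3.86%, 6.61% and 3.22% of all genes did in the order given. DESeq2 called 0 of 37 in all 3 comparisons, where it called 1.13%, 0.934% and 0.386% of its tested genes. With the 9 libraries as separate replicates edgeR also called 0 of 37, and 2.88%, 0.0133% and 1.79% of all genes.

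Ranges of CPM that did not overlap between groups were counted as well. Against averaged control, the heat stress range was lower for 1 of 13 protein-coding genes (ATP6) and 3 of 22 tRNA genes, where this held for 25.0% of all tested genes, and it was higher for none, where 17.3% were (42.2% together). The L-Asp range was below control for 7 of 13 protein-coding genes (ND1, ND2, COX1, ATP8, ATP6, ND6 and CYTB), both rRNA genes and 5 tRNA genes, against a background of 26.0%. It was above control for 1 tRNA gene, against 19.0% (45.0% together). Between L-Asp and heat stress 0 of 37 genes were separate, against 11.9% of all tested genes (5.54% lower and 6.31% higher with L-Asp).

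The make-up of the mitochondrial counts separated the heated groups for several genes, whereas their total did not. As a share of all counts on the 37 genes, COX1 took 42.5%, 40.0% and 38.4% in the L-Asp libraries, 55.4%, 49.4% and 45.6% in the heat stress libraries and 41.9% in control. The heat stress libraries, replicate 3 among them, lay above every L-Asp and control library. ATP6 took 10.6%, 11.1% and 13.0% with L-Asp, 6.03%, 8.64% and 9.63% in heat stress and 14.8% in control, which put L-Asp between the other groups without overlap. ND4 took 5.84%, 5.53% and 7.09% with L-Asp, 3.70%, 3.66% and 4.17% in heat stress and 5.43% in control. CYTB took 4.47%, 5.34% and 5.32% with L-Asp, 3.67%, 4.16% and 4.37% in heat stress and 5.05% in control. In both genes heat stress was the lowest group, and the L-Asp libraries lay on either side of control for CYTB and above it for ND4.

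For ND3, ND4L and ND5 the L-Asp share stood above both other groups. ND3 took 0.599%, 0.549% and 0.641% with L-Asp, 0.496%, 0.390% and 0.361% in heat stress and 0.365% in control. ND4L took 1.36%, 1.39% and 1.88% with L-Asp, 0.836%, 0.961% and 1.11% in heat stress and 1.05% in control. ND5 took 3.49%, 3.20% and 3.32% with L-Asp, 3.14%, 2.92% and 2.91% in heat stress and 2.53% in control. The other shares overlapped between L-Asp and heat stress. COX2 took 5.03%, 5.42% and 4.76% with L-Asp and 5.76%, 6.82% and 5.29% in heat stress, all above 4.02% in control, and COX3 was above its control share of 8.31% in all 6 heated libraries as well. ND1 took 5.05%, 5.64% and 4.96% with L-Asp, against 3.08%, 2.31% and 5.84% in heat stress and 5.87% in control, so that heat stress replicate 3 stood near control.

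Of the 15 protein-coding and rRNA genes, 7 had shares that did not overlap between L-Asp and heat stress, COX1 lower and ATP6, ND3, ND4L, ND4, ND5 and CYTB higher with L-Asp (exact permutation test, two-sided, p = 0.1 for each, the smallest possible). No tRNA gene did. Of all tested genes, 3.87% did not overlap when set against the mitochondrial total. Nearly all of these are nuclear, and division by a total that ran between 1536799 and 7747539 counts within heat stress makes their ranges overlap (11.9% were separate in CPM), so this is no like-for-like background for the 7 genes. Without heat stress replicate 3 the number was 12 of 15, where leaving out a library can keep or raise it but not lower it. Shares of 1 total depend on each other, since a high COX1 share lowers the rest. With the mitochondrial total as library size, edgeR's test called 0 of 37 genes in all 3 comparisons, and 0.04% of all tested genes for L-Asp against heat stress and 0.0% for each group against control. That fit borrows its estimate of spread from all tested genes, nearly all of them nuclear. Division by that total spreads them, so 0 of 37 does not decide about the 7 genes. Counting error, with PCR copying left out, was at most 0.0786 percentage points (95% Wilson half-width) for these shares.

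By complex, complex I made up 23.7% ± 0.62 of mitochondrial counts with L-Asp, 16.8% ± 4.26 in heat stress (SD, n = 3 each) and 22.6% in control. Complex IV made up 56.1% ± 1.84 with L-Asp, 66.8% ± 5.13 in heat stress and 54.2% in control. Complex V made up 11.8% ± 1.24 with L-Asp, 8.32% ± 1.94 in heat stress and 15.2% in control. Complex III, which is CYTB alone, made up 5.04% ± 0.50 with L-Asp, 4.07% ± 0.36 in heat stress and 5.05% in control. In each of the 4 complexes the L-Asp and heat stress libraries did not overlap (exact permutation test, two-sided, p = 0.1, the smallest possible). The heat stress libraries were thus weighted towards complex IV, in replicate 3 (60.9%) as in replicates 1 and 2 (70.1% and 69.4%). Between the heated groups this was mainly COX1. Its share differed by -9.81 percentage points (L-Asp minus heat stress), that of COX2 by -0.89 and that of COX3 by 0.038. Complex I made up 15.1% and 13.7% in heat stress replicates 1 and 2, but 21.7% in replicate 3, near the 22.6% of control. For complex III the groups were close, with 4.47% in L-Asp replicate 1 and 4.37% in heat stress replicate 3. The shares of the 4 complexes depend on each other and repeat those of their genes.

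**Figure D3:**
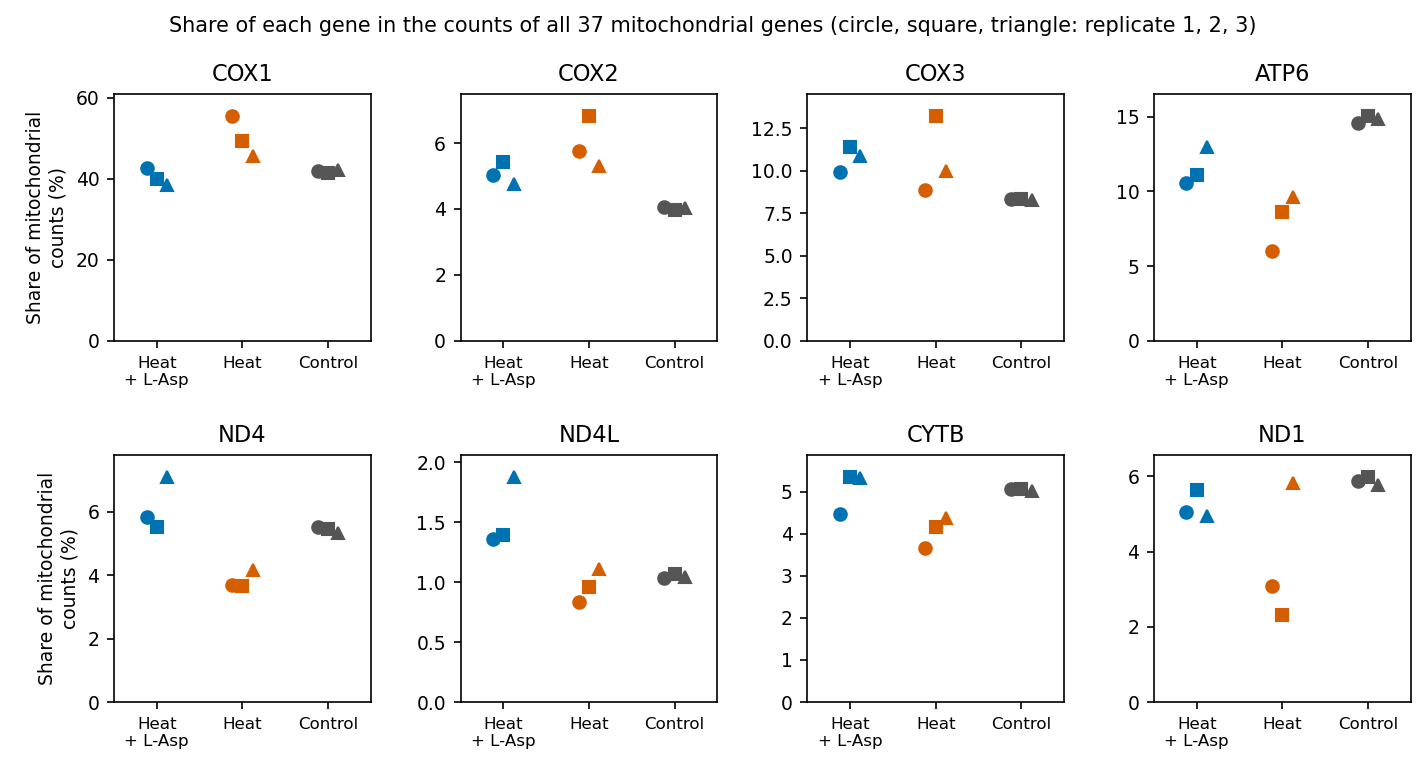
Share of 8 protein-coding genes in the counts of all 37 mitochondrial genes (percent, axes start at 0), by library, with heat stress + L-Asp, heat stress and control left to right. COX1 is highest in heat stress (45.6% to 55.4%) and ATP6 lowest there (6.03% to 9.63%), while ND1 and COX3 overlap between the heated groups.

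Levels per transcript length were compared with the deposited FPKM values, fragments scaled to transcript length and library size. In control COX1 was highest at 23755 FPKM, followed by ATP6 at 19067, COX3 at 9289.9, ND1 at 5389.9, COX2 at 5126 and ND2 at 5017 FPKM. CYTB had 3882, ND4 3454, ND4L 3092, ND6 2326, ATP8 1657, ND5 1219.7 and ND3 925 FPKM. The 13 genes kept 1 order in the 3 control libraries, and COX1 was first in all 9. COX2 ranked 4 in all 6 heated libraries and 5 in control, ahead of ND1 and ND2 when heated. ATP8 ranked 13, the lowest, in all L-Asp libraries and in heat stress replicates 1 and 2, and 11 in control.

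Genes carried on 1 mRNA or next to each other were then set against each other within each library. ATP6 stood at 123%, 112% and 138% of the FPKM of COX3, which follows it in the genome, in the L-Asp libraries, at 78.2%, 75.3% and 111% in the heat stress libraries and at 205% in control. All 6 heated libraries were below control, and the heated groups did not overlap (exact permutation test, two-sided, p = 0.1, the smallest possible). ND5 stood at 45.3%, 43.7% and 35.4% of ND4 with L-Asp, at 64.2%, 60.4% and 52.7% in heat stress and at 35.3% in control, again without overlap between the heated groups (exact p = 0.1). ND4L stood at 108%, 117% and 123% of ND4 with L-Asp, at 105%, 122% and 123% in heat stress and at 89.5% in control. It was above control in all 6 heated libraries, which did not separate by L-Asp. ND6 stood at 156%, 125% and 128% of ND5, which it overlaps by 17 bases on the other strand, with L-Asp, at 145%, 123% and 130% in heat stress and at 191% in control. All 6 heated libraries were lower here. ATP8 stood at 8.24%, 8.90% and 6.19% of ATP6 with L-Asp, at 9.71%, 5.04% and 12.8% in heat stress and at 8.69% in control, with no common direction. The preparation does not mark the strand, so reads of ND5 and ND6 over their overlap cannot be told apart, and nuclear copies of mitochondrial DNA may share reads with any of these genes.

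The rRNA genes have no symbol in the table and are given by identifier. The shorter, ENSSSCG00000018061 (MT, 1246 to 2205, plus strand), measured 249, 343 and 175 CPM with L-Asp, 247, 222 and 566 CPM in heat stress and 384 CPM in control. The longer, ENSSSCG00000018063 (MT, 2274 to 3844, plus strand), measured 547, 589 and 553 CPM with L-Asp, 480.1, 494 and 1048 CPM in heat stress and 628 CPM in control. Heat stress replicate 3 was again the highest library, and the other 5 heated libraries were below control for both. Heat stress replicates 1 and 2 lay at 0.579 to 0.786 of control, where the median protein-coding gene lay at 0.221 and 0.342. As a share of mitochondrial counts the rRNA genes took 1.53%, 0.993% and 0.794% with L-Asp, 2.34%, 1.54% and 1.07% in heat stress and 0.902% in control, with overlap between the heated groups (exact permutation test, two-sided, p = 0.2). The fitted log2 fold change of heat stress against control was -0.15 ± 0.50 for the shorter and 0.10 ± 0.41 (SE) for the longer gene. On library totals alone the shorter one turned to 0.0037. RNA primed from a poly(A) tail does not measure the pool of ribosomal RNA as a whole.

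The 22 tRNA genes are 59 to 75 bases long and are likewise unnamed. They carried little signal, with 1 exception. ENSSSCG00000018076 (MT, 8059 to 8129, minus strand), which starts 3 bases after COX1, measured 1043, 1589.8 and 1780.3 CPM with L-Asp, 665, 1018 and 2621 CPM in heat stress and 1985 CPM in control. In control it reached 21819 FPKM, where the other tRNA genes had 15.1 to 539 FPKM. It followed COX1, at 103%, 92.3% and 110% of its FPKM with L-Asp, 83.8%, 96.3% and 83.0% in heat stress and 91.8% in control. Without strand, reads of COX1 RNA that run on over these 71 bases cannot be told apart from reads of the minus strand.

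Of the tRNA genes, 10 had a mean of at least 10 CPM. ENSSSCG00000018079, between COX2 and ATP8, measured 15.5, 39.7 and 24.7 CPM with L-Asp, 10.0, 14.5 and 77.3 CPM in heat stress and 46.3 CPM in control. ENSSSCG00000018068, just before ND2, measured 7.18, 20.8 and 14.8 CPM with L-Asp, 4.17, 5.40 and 26.7 CPM in heat stress and 19.6 CPM in control. Both showed the low heat stress replicates 1 and 2 and the high replicate 3 of the mRNAs beside them. So did ENSSSCG00000018093 between ND6 and CYTB (21.1, 25.6 and 24.9 CPM with L-Asp, 12.5, 14.2 and 43.9 CPM in heat stress, 38.6 CPM in control) and ENSSSCG00000018095 after CYTB (13.3, 26.0 and 16.5 CPM with L-Asp, 8.12, 10.9 and 31.5 CPM in heat stress, 22.5 CPM in control). ENSSSCG00000018083 before ND3 measured 26.0, 47.6 and 42.1 CPM with L-Asp, 16.7, 16.8 and 54.0 CPM in heat stress and 37.9 CPM in control. ENSSSCG00000018085, on the other side of ND3, departed from this: it measured 20.3, 20.9 and 26.5 CPM with L-Asp, 18.4, 13.0 and 22.2 CPM in heat stress and 16.6 CPM in control. Its L-Asp libraries all lay above control, the only tRNA gene for which this held.

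Around the rRNA genes, ENSSSCG00000018062 measured 15.0, 19.8 and 8.19 CPM with L-Asp, 15.6, 8.34 and 32.7 CPM in heat stress and 12.8 CPM in control. ENSSSCG00000018064 measured 9.22, 12.1 and 8.83 CPM with L-Asp, 6.06, 5.69 and 28.8 CPM in heat stress and 12.7 CPM in control. ENSSSCG00000018077, before COX2, measured 12.2, 20.7 and 18.7 CPM with L-Asp, 14.2, 11.7 and 28.7 CPM in heat stress and 16.0 CPM in control. Heat stress replicate 3 was the highest library in all 3. The remaining 12 tRNA genes stayed between 1.05 and 12.4 CPM in the heated libraries. Among them, the 3 that fill the gap between ND4 and ND5 were the only tRNA genes below control in all heat stress libraries. Their ratios were 0.529 to 0.928, replicate 3 included. Over all 22 the fitted log2 fold change of heat stress against control was below 0 in 14, with a median of -0.38, and that of L-Asp against heat stress was above 0 in 12, with a median of 0.03.

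**Figure D4:**
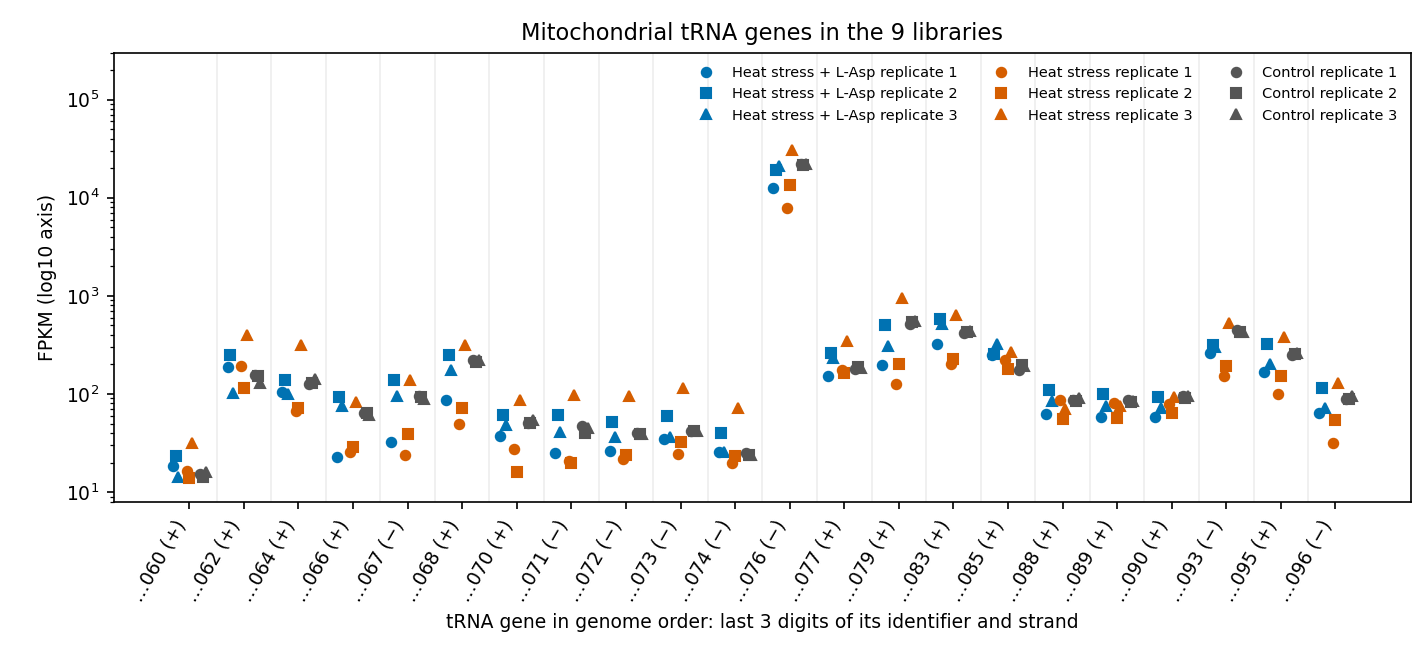
FPKM (log10 axis) of the 22 mitochondrial tRNA genes in genome order, with the strand in parentheses, in all 9 libraries (L-Asp, heat stress and control left to right within a gene). ENSSSCG00000018076 stands at 7857 to 30329 FPKM, and each of the other genes at 948 FPKM or below in every library.

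Nuclear genes that copy, transcribe, process or degrade mitochondrial nucleic acids were examined beside these values. Of 47 listed genes 42 were tested. For heat stress against control 23 were above and 19 below 0, with 0 called and a median of 0.10 on the log2 scale. For L-Asp against heat stress 21 were above and 21 below, with a median of 0.00 and 0 called, and for L-Asp against control 23 were above and 19 below, with a median of 0.08 and 0 called. In all 3 comparisons the background was 0.0% of all tested genes. SLIRP, which protects mitochondrial mRNAs with LRPPRC, measured 10.3 ± 0.63 CPM with L-Asp, 10.2 ± 1.95 CPM in heat stress (SD, n = 3 each) and 1.50 CPM in control (heat stress against control 2.76 ± 0.65 on the log2 scale, SE, edgeR adjusted p = 0.472). NRF1, a transcription factor for nuclear genes of mitochondria, measured 8.23 ± 0.89 CPM with L-Asp, 2.28 ± 1.68 CPM in heat stress and 11.0 CPM in control, and the heated groups did not overlap (L-Asp against heat stress, edgeR adjusted p = 0.738). FASTKD1, a regulator of mitochondrial mRNA, measured 29.1 ± 5.16 CPM with L-Asp, 49.9 ± 3.27 CPM in heat stress and 30.6 CPM in control. SLIRP and NRF1 had the smallest unadjusted p of the list for heat stress against control, NRF1 and FASTKD1 for L-Asp against heat stress, and none passed the adjusted threshold.

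GRSF1, which binds mitochondrial RNA in its granules, measured 147 ± 5.21 CPM with L-Asp, 191 ± 18.5 CPM in heat stress and 132 CPM in control. SUPV3L1, the helicase of the mitochondrial RNA degradation complex, measured 116 ± 9.70 CPM with L-Asp, 149 ± 16.0 CPM in heat stress and 88.3 CPM in control. PNPT1, the nuclease of that complex, measured 43.3 ± 7.83 CPM with L-Asp, 56.1 ± 21.8 CPM in heat stress and 76.3 CPM in control. TOP1MT, the mitochondrial topoisomerase, measured 1.56 ± 0.74 CPM with L-Asp, 1.37 ± 0.89 CPM in heat stress and 8.66 CPM in control. POLRMT, the mitochondrial RNA polymerase, measured 4.92 ± 1.28 CPM with L-Asp, 1.96 ± 1.04 CPM in heat stress and 2.58 CPM in control. None of these 5 differences passed the adjusted threshold of edgeR. TFAM, which packs mitochondrial DNA and starts its transcription and was picked after its values were seen, measured 3.18, 0.323 and 0.166 CPM with L-Asp, 0.162, 0 and 0.253 CPM in heat stress and 3.04 CPM in control. Levels under 1 CPM rest on few fragments. TFAM was low in 5 of the 6 heated libraries, heat stress replicate 3 among them. Its relation to the mitochondrial share was not tested.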

How the data were processed

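Libraries of polyadenylated RNA (oligo(dT)-primed, PCR-amplified cDNA without strand marks or molecular identifiers, per the labels' protocols) were used from 3 groups of 3. The deposited table holds whole-number counts and FPKM values per gene and library, per the file headers. Counts were used as the authors deposited them, and their deposited FPKM values served to compare genes. Tools listed in the submitters' processing notes, with no role, are StringTie 2.1.6, HISAT2 2.2.1, cutadapt 1.9, edgeR and DESeq2. No source used here gives the genome build, and the start and end of all 37 genes equal those of the RefSeq table of assembly Sscrofa11.1. A further 6 columns of per-sample values were not used.

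Genes were kept by filterByExpr of edgeR 4.0.16 on 9 libraries (15012 genes), scaled by TMM, and tested with the quasi-likelihood test (glmQLFit, robust, 1 mean per group, 4 residual degrees of freedom) on 7 libraries, with the control libraries averaged and rounded. CPM values use the same scaling. Adjusted p-values run over all genes tested. Shares were compared with two-sided exact permutation tests over 6 libraries (scipy 1.17.1). DESeq2 1.42.0, another scaling, other filters, all 9 libraries, the replicate number as a block and the omission of single libraries were alternatives. The edgeR fit with the mitochondrial total as library size was added after seeing the data. The edgeR fit was tested on simulated counts for L-Asp against heat stress, and the other steps were not. That simulation used larger changes than those fitted here and the same spread for every gene. It therefore does not show what the fit can detect for the mitochondrial genes. All protein-coding and rRNA genes were named, tRNA genes from a mean of 10 CPM, and up to 4 machinery genes per comparison by smallest p. The members and lists were chosen with earlier results of these data known. Intervals cover counting error only, since PCR copies are not independent molecules. Overlapping genes are uncertain, because the rule of counting is not known from the labels or headers.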

Additional observations from a re-analysis of the deposited data

How the results depend on the processing

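No mitochondrial gene was called in any comparison under any alternative run. The number of genes called over the whole table, 0 in all 3 comparisons, changed with the setting. For heat stress against control it was 433 with all 9 libraries as replicates, 378 with the replicate number as a block on 9 libraries, 9 without a filter, 183 with DESeq2 and 0 to 1 without single libraries. For L-Asp against heat stress it was 2 with 9 libraries, 2 without a filter, 2 with the filter on 7 libraries, 179 with DESeq2, 0 with the block and 0 to 3 without single libraries. For L-Asp against control it was 269 with 9 libraries, 223 with the block, 3 without a filter, 64 with DESeq2 and 0 to 1 without single libraries. Same-numbered heat stress and L-Asp libraries did not deviate together (correlations of 0.051, -0.020 and 0.011). With 3 libraries per group this cannot show whether same-numbered libraries share an animal, day or batch, and the labels do not say. Under the block the median log2 fold change of the protein-coding genes was -1.13 for heat stress against control, 0.57 for L-Asp against heat stress and -0.61 for L-Asp against control, and the mean of the same-numbered differences in mitochondrial share, L-Asp minus heat stress, was 0.422 percentage points, which equals the unpaired difference by arithmetic.

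That difference ranged between -1.83 and 3.89 without single libraries, and was negative without heat stress replicate 1 or 2 or L-Asp replicate 2 or 3. Genes with separate shares between L-Asp and heat stress (7 of 15) numbered 7 to 12 without single libraries, a number that omission cannot lower. On FPKM they numbered 6, with COX2 added and ND5 and CYTB lost. The edgeR fit on the mitochondrial total called 0, but for the reason given with it that fit cannot decide about the 7 genes. On library totals alone, log2 fold changes turned sign for ENSSSCG00000018061 (0.0037) and COX2 (0.094) in heat stress against control, and for ENSSSCG00000018063 (0.016), COX2 (0.0041), COX3 (0.055) and ND5 (0.053) in L-Asp against control. Under the block they turned for COX2 (0.054) and ATP8 (0.52) in L-Asp against heat stress and ND4L (-0.096) in L-Asp against control.

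Without single libraries, 7 of 135 values for heat stress against control turned sign. The ranges were -0.72 to 0.082 for ENSSSCG00000018061, -0.37 to 0.30 for ENSSSCG00000018063, -0.86 to 0.30 for COX2, -1.07 to 0.18 for COX3 and -1.29 to 0.012 for ND5. For L-Asp against heat stress 21 turned, with ranges of -0.68 to 0.13 for ENSSSCG00000018061, -0.45 to 0.21 for ENSSSCG00000018063, -0.25 to 2.03 for ND1, -0.24 to 2.21 for ND2, -0.54 to 0.65 for COX1, -0.47 to 0.69 for COX2, -0.54 to 1.88 for ATP8, -0.30 to 0.95 for COX3, -0.13 to 1.17 for ND5, -0.075 to 1.18 for ND6 and -0.067 to 1.40 for CYTB. For L-Asp against control 4 turned, with ranges of -0.36 to 0.064 for COX2, -0.29 to 0.15 for COX3, -0.23 to 0.36 for ND4L and -0.24 to 0.085 for ND5. The cause was not tested. The lowest count of a mitochondrial gene in a library was 51, and counting error is largest for such tRNA genes.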
